A study of Mus musculus with 4 samples.

Results

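Plat, Plau, Plaur and F3 encode tissue-type plasminogen activator, urokinase, the urokinase receptor and tissue factor, and they were followed in single-cell RNA libraries of the mouse small-intestinal epithelium. The 4 genes were chosen by name out of 25289 gene columns, with earlier results of these libraries known, so their difference between genotypes is given as a description with no test. Cells with at least 1000 counts, at least 300 detected genes and at most 30% mitochondrial counts were kept.

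The activators Plat and Plau are secreted serine proteases that cut plasminogen into plasmin, a protease that dissolves fibrin and cleaves matrix proteins. The receptor encoded by Plaur is a protein anchored in the cell membrane by a lipid, which holds urokinase at the cell surface and places plasmin formation there. Tissue factor is a transmembrane receptor that binds coagulation factor VII and starts the clotting cascade, at whose end fibrin is laid down. The kinases Lats1 and Lats2 are the last step of the Hippo pathway and inhibit the transcriptional coactivators YAP and TAZ, which act through TEAD factors.

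The Lats-deleted group was 2 libraries from mice carrying Lrig1-CreERT2 and loxP-flanked Lats1 and Lats2, a tamoxifen-inducible Cre expressed from the locus of Lrig1, a gene of intestinal stem and progenitor cells. The control group was 2 libraries from mice with the same floxed alleles and no Cre. All mice were adult C57BL/6J, received tamoxifen intraperitoneally (2 mg) and were harvested on day 7, and 5000 live cells positive for EpCAM and negative for CD45 and TER119 were sorted per condition and captured with inDrop v2. Libraries are numbered as in their labels. Whether a library stands for its own mouse is not stated there. The spread behind p-values between genotypes is therefore that between libraries and may be technical. For p-values between classes of cells within libraries, it is how their difference varies between libraries, which may be technical too.

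The Lats-deleted libraries held 726 and 1289 kept cells with medians of 3715.5 and 3848 counts per cell, and the control libraries 774 and 515 kept cells with medians of 1708 and 1995. Levels are given as CPM, counts per 1000000 counts of the kept cells. Lats1 stood at 7.58 and 9.78 CPM in Lats-deleted and at 20.6 and 32.6 CPM in control libraries, whereas Lats2 stood at 29.8 and 21.3 CPM against 8.11 and 9.77 CPM. Counts come mostly from the 3′ ends of transcripts in this assay and the place of the floxed exons is not given in the sources used here, so these values do not check the deletion. The epithelial keratin Krt8 was detected in all libraries at 8582 and 7095 CPM against 2347 and 2148 CPM. Lats-deleted library 2 contained 484 cells of clusters led by stomach genes, although the labelled tissue is small intestine. Library 1 held 2 such cells and the controls 0, and Lats-deleted library 1 contained 71 of the 77 stromal-like cells. Each pair of libraries shared 4 to 12 kept cell barcodes.

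The genes lie on the forward strand of GRCm38 (the assembly of mm10) and overlap no other annotated gene. Plat (ENSMUSG00000031538.6) has 14 exons at chr8:22757727-22782844, and Plau (ENSMUSG00000021822.3) has 11 exons at chr14:20836660-20843385. Plaur (ENSMUSG00000046223.10) has 7 exons at chr7:24462484-24475968, and F3 (ENSMUSG00000028128.13) has 6 exons at chr3:121723537-121735048. RefSeq promoters on GRCm38.p6 were at hand for Plaur and F3 (chr7:24462233-24462482 and chr3:121723287-121723536), the 250 bases before each annotated start. No promoter was at hand for Plat or Plau, so this pair was set by what was available and not by the levels of the genes. The capitals mark matches to the AP-1 motif TGANTCA.
Plaur: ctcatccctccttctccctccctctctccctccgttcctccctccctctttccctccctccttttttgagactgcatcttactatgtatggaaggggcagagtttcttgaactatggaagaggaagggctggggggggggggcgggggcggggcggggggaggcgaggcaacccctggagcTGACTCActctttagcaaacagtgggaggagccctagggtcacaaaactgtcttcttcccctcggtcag
F3: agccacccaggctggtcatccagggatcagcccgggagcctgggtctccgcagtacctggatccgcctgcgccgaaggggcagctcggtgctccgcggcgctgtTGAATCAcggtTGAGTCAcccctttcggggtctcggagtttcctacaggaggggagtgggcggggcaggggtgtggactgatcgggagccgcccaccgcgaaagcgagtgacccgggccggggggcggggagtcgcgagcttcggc
Both strands were searched. The Plaur promoter held 1 match, TGACTCA, 69 to 63 bases before the start. The F3 promoter held 2 matches, TGAATCA 146 to 140 bases and TGAGTCA 135 to 129 bases before the start. A match to TGANTCA was found in 6.75% of 32851 RefSeq promoter windows of the same length, and at least 2 matches in 0.338%. The TEAD motif GGAATG was found in 12.6% of the windows and in neither of these. These matches describe letters in the window and show no binding.

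In both Lats-deleted libraries the transcripts of all 4 genes were more abundant than in either control library. In edgeR's fit over all genes 3869 of 12561, or 30.8% of those tested, passed an adjusted p of 0.05 in either direction, and 15.3% were higher. How many genes had both Lats-deleted libraries above both control libraries was not counted. Nothing is read from the 4 genes against these shares, because the difference between genotypes took part in choosing them. Plat, the tissue-type activator, had 2291 and 1150 counts in the Lats-deleted libraries, against 2 and 1 counts in control. That is 643 and 197 CPM in Lats-deleted libraries and 1.25 and 0.814 CPM in control libraries, a mean of 420 ± 315 against 1.03 ± 0.306 CPM (SD, n = 2 each). The groups did not overlap: the lower Lats-deleted library was 158 times the higher control library. The summed ratio was 346 with a 95% counting interval of 118 to 1679, which rests on 3 control counts. Plat also differed between the Lats-deleted libraries, by a ratio of 3.26 (3.03 to 3.50), library 1 being the higher.

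Plau, the urokinase gene, had 37 and 51 counts in the Lats-deleted libraries and 3 and 2 in control. In CPM these were 10.4 and 8.75 against 1.87 and 1.63, or 9.57 ± 1.15 in Lats-deleted and 1.75 ± 0.172 in control libraries (SD, n = 2 each). The groups did not overlap, and the summed ratio was 5.31 (2.19 to 16.8). Lats-deleted library 1 over library 2 gave 1.19 (0.755 to 1.85), so that pair did not differ beyond counting error.

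Plaur, which encodes the receptor for urokinase, had 1201 and 1607 counts in the Lats-deleted libraries and 5 and 4 in control. It averaged 306 ± 43.4 CPM in Lats-deleted and 3.19 ± 0.0979 CPM in control libraries (SD, n = 2 each), with single libraries at 337 and 276 against 3.12 and 3.26 CPM. The lower Lats-deleted library was 84.7 times the higher control library, and the summed ratio was 94.1 (49.5 to 206). Between the Lats-deleted libraries Plaur gave 1.22 (1.13 to 1.32), library 1 over library 2, a difference beyond counting error. F3, the tissue factor gene, had 1435 and 2438 counts in Lats-deleted libraries and 8 and 3 in control. Its levels were 403 and 418 CPM against 4.99 and 2.44 CPM, or 411 ± 11 in Lats-deleted and 3.72 ± 1.80 in control libraries (SD, n = 2 each). The summed ratio for F3 was 106 (59.3 to 213), and its Lats-deleted libraries did not differ beyond counting error, at 0.963 (0.901 to 1.03).

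**Figure D1:**
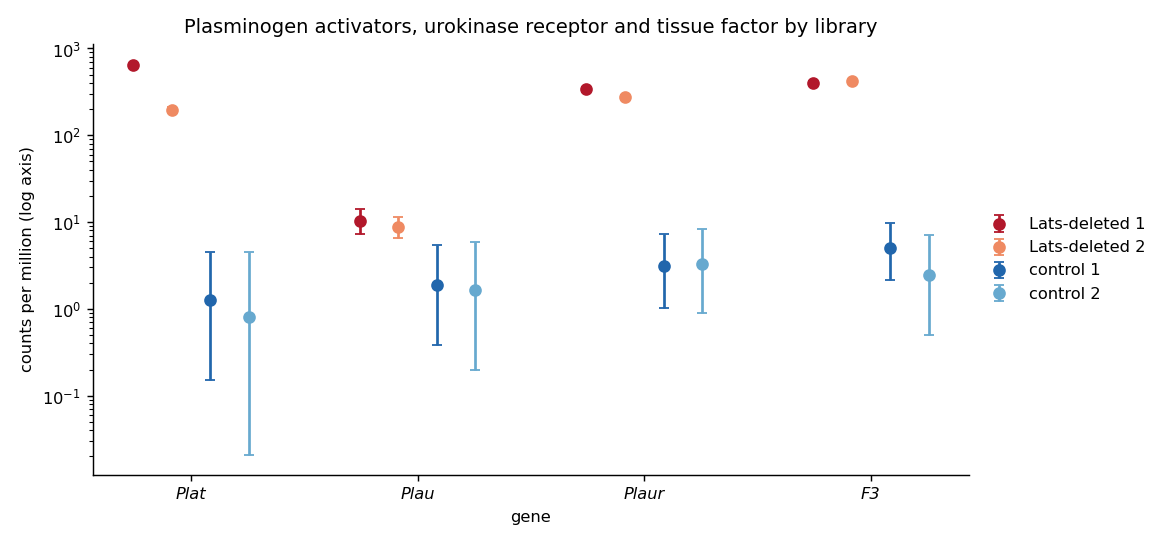
Levels of Plat, Plau, Plaur and F3 in each library, in CPM on a log axis, with bars for the 95% exact Poisson interval (counting error only). For each gene both Lats-deleted libraries lie above both control libraries, and the Lats-deleted libraries lie farther apart for Plat (643 and 197 CPM) than for Plaur (337 and 276 CPM).

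The plot of levels by library shows this pattern. In edgeR's quasi-likelihood fit over all genes the log2 fold changes, Lats-deleted over control, were 8.32 for Plat, 2.15 for Plau, 6.32 for Plaur and 6.47 for F3, with standard errors of 0.845, 0.488, 0.305 and 0.354. Median counts per cell were higher in Lats-deleted libraries, and with each cell thinned to 1000 counts the fold changes of Plat, Plaur and F3 were 7.28, 6.12 and 6.12. Plau fell below the count filter when cells were thinned. In sums over a library, more cells with a transcript and more transcript per cell cannot be told apart.

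The share of cells with a count was also taken, after thinning each cell to 1000 counts. At that depth the share depends on transcript per cell as well, so it does not separate the 2 either. Without thinning F3 was found in 51.3% of cells of Lats-deleted library 2. Plat was found in 27.5% and 12% of cells in the Lats-deleted libraries and in 0.258% and 0% in control. Plaur was found in 21.1% and 22.3% against 0.258% and 0.388%, and F3 in 21.1% and 27.0% against 0.517% and 0%. For these 3 genes every Lats-deleted share was above every control share. Plau was found in 1.38% and 1.09% against 0.129% and 0%. A share of 0 in control library 2, with 515 cells, allows up to 0.583% of cells with a count at this thinned depth (3 counts of the total), and sets no limit on cells that express the gene.

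Enterocytes, the absorptive cells, served to gauge free RNA within the Lats-deleted libraries. The 54 enterocyte-like cells there, with medians of 1941 and 2188 counts, held 0 Plat, 2 Plau, 3 Plaur and 2 F3 counts. This is 0 CPM for Plat, which at 3 counts allows up to 20.6 CPM, and 20.6 CPM (4.26 to 60.3) for Plaur and 13.8 CPM (1.67 to 49.7) for F3, all below the library levels of those genes. For Plau it is also 13.8 CPM (1.67 to 49.7), which spans the library levels of 10.4 and 8.75 CPM. After thinning, 1 of these 54 cells (1.85%, 0.0469 to 9.89%) had a Plau count, so these few cells do not set the Plau of the libraries apart from free RNA. Other clusters of the same libraries held less Plau, with 0 counts in 155 cells of cluster 9 and, in library 2, 3.22 CPM (1.04 to 7.51) in pit-like and 1.45 CPM (0.0366 to 8.06) in gland-like cells.

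Control counts were few and scattered. The 875 control enterocyte-like cells held 2 Plat, 5 Plau, 2 Plaur and 5 F3 counts. The 150 control stem-like cells held 0 Plat, 0 Plau, 1 Plaur and 1 F3 count, and the 95 goblet-like cells, whose cluster also carried Paneth cell genes, held 0, 0, 3 and 1. No control cell had more than 1 count of any of these genes, except a cell of control library 1 with 3 F3 counts. That cell had 2215 counts in all, clustered with the cycling-like cells of the Lats-deleted libraries and held 9 counts of Clu, a marker of regenerating epithelium. Without it and the other control cell in that cluster, the log2 fold change of F3 was 6.91.

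Cells were clustered without the columns of the 4 genes, and the clusters are described rather than tested. Clusters 0 and 1 are called regenerative-like after markers such as Clu, Anxa1 and Krt7, and held 456 and 360 cells of the Lats-deleted libraries and no control cell. Since enterocyte-like cells made up 4.55% and 1.63% of the Lats-deleted libraries and 71.4% and 62.5% of the control libraries, the libraries differ in composition wherever totals are compared.

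Plat was highest in cluster 1, whose leading genes include Reg3b and Clca4a, at 958 CPM in library 1 and 611 CPM in library 2. Cluster 0, led by genes such as Igfbp7, Ankrd1 and Krt14, had 597 and 324 CPM. The small cluster 13, cycling-like with 25 and 13 cells, had 453 (349 to 577) and 582 (418 to 790) CPM, so that in library 2 it was above cluster 0 and its interval took in the level of cluster 1. Plat stood lower in cluster 3, the larger cycling-like cluster with 28 and 321 cells, at 195 and 79.1 CPM. It was 199 and 147 CPM in cluster 9, an unnamed group led by Duox2, Gpx2 and Il1rn. In the gastric-like clusters of library 2 it was 85.0 CPM in pit-like cells and 21.7 CPM in gland-like cells. Cluster 1 alone supplied 63.4% of the Plat counts of library 1 and 45.1% of those of library 2. It held 30.4% and 12.6% of the cells, and 42.6% and 14.6% of the counts of all genes.

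The difference in Plat between the Lats-deleted libraries was smaller inside clusters than over all cells. Library 1 over library 2 gave 1.85 (1.60 to 2.13) in cluster 0 and 1.57 (1.42 to 1.73) in cluster 1, beside 3.26 over all cells. In cluster 9 the ratio of 1.35 (0.924 to 2.02) was within counting error. Clusters 0 and 1 made up 62.8% of library 1 and 27.9% of library 2.

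Plau was low in every cluster. It stood at 16.9 and 23.3 CPM in cluster 0, against 5.27 and 4.71 CPM in cluster 1, so cluster 0 was the higher in both libraries. In library 2 the intervals, 14.4 to 35.6 in cluster 0 and 1.28 to 12.1 in cluster 1, did not overlap. No Plau count fell in the 95 and 60 cells of cluster 9, which at 3 counts allows up to 6.56 and 11 CPM. Cluster 3 of library 2 had 12.2 CPM (6.96 to 19.8). The stromal-like cluster had 47.6 CPM in library 1 from 9 counts, and these were 24.3% of that library's Plau counts. With stromal-like cells left out, Lats-deleted libraries 1 and 2 had Plau levels of 8.30 and 8.62 CPM, and the log2 fold change of Plau was 2.01.

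Plaur varied less than Plat among clusters 0, 1, 3, 9 and the gastric-like clusters. It was 452 and 424 CPM in cluster 1 and 348 and 312 CPM in cluster 0, and 319 CPM in gastric pit-like cells of library 2. Cluster 13 had 265 and 454 CPM, and cluster 3 had 177 and 234 CPM. Cluster 9 had 184 and 209 CPM, and gland-like cells had 95.5 CPM. Stromal-like cells had 47.6 CPM in library 1, and the 31 enterocyte-like cells of cluster 2 held no Plaur count. Within clusters 0, 1 and 9 library 1 over library 2 gave 1.12, 1.07 and 0.877, all with intervals that included equality.

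F3 was highest in cluster 0 of library 2, at 777 CPM, with 519 CPM in that cluster of library 1. Cluster 1 had 488 and 628 CPM, cluster 13 had 279 and 653 CPM, and cluster 3 had 195 and 348 CPM. Cluster 9 had 192 and 455 CPM, and pit-like cells 337 CPM. Gland-like cells had 72.4 CPM. Stromal-like cells held a single F3 count among 71 cells of library 1 and 0 among 6 cells of library 2. F3 ran opposite to Plat between the Lats-deleted libraries: library 1 over library 2 was 0.668 (0.597 to 0.748) in cluster 0, 0.778 (0.695 to 0.871) in cluster 1 and 0.423 (0.318 to 0.560) in cluster 9, although the totals of the libraries were alike.

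**Figure D2:**
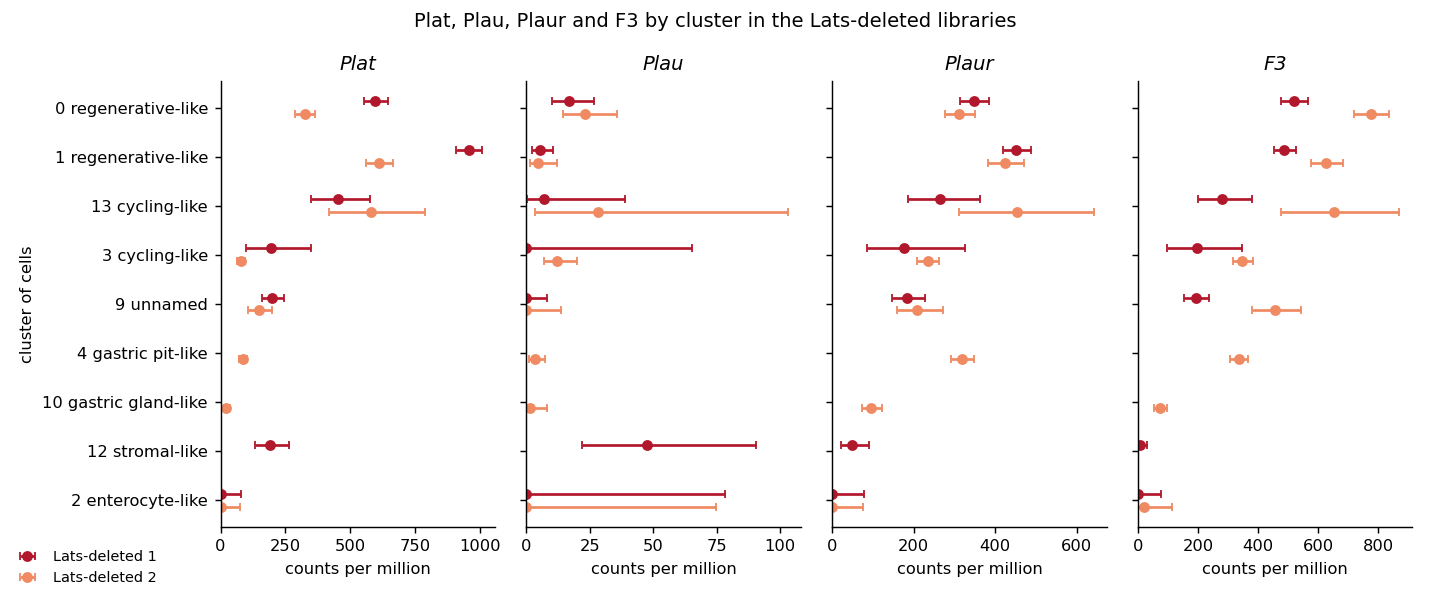
Levels of Plat, Plau, Plaur and F3 in CPM by cluster and Lats-deleted library, for groups of at least 10 cells, with 95% exact Poisson intervals and a separate scale for each gene. Plat is highest in cluster 1 of each library (958 and 611 CPM, with cluster 13 of library 2 within its error at 582 CPM), F3 in cluster 0 of library 2 (777 CPM), and enterocyte-like cells of cluster 2 lie at or near 0 for all 4 genes.

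The plot by cluster sets these levels side by side. In regenerative-like cells, where median depths were alike at 4443 and 4414.5 counts, Plat was found in 34.2% of thinned cells of library 1 and 27.8% of library 2. Plaur was found in 27.4% and 27.2%, F3 in 28.3% and 40.6%, and Plau in 1.1% and 1.67%. Without thinning the shares were 61.0% and 53.1% for Plat, 64.5% and 65.3% for Plaur, 61.4% and 70.6% for F3, and 3.95% and 5.83% for Plau. The largest count of Plat in a single cell was 104, in cluster 1 of library 1.

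Among thinned cells of the Lats-deleted libraries, 47.8% and 53.1% had no count of the 4 genes, 35.7% and 33.5% had a count of 1 of them, and 14.3% and 11.3% of 2. No control cell had counts of more than 1 of the genes after thinning. F3 was found more often in cells with a Plaur count than in cells without: 30.7% (23.5 to 38.7) against 18.5% (15.4 to 21.9) in library 1, and 34.7% (29.2 to 40.5) against 24.8% (22.1 to 27.6) in library 2. The intervals did not overlap in either library. In cells with a Plat count F3 was found in 26.5% (20.5 to 33.2) against 19.0% (15.7 to 22.6) of cells without in library 1, where the intervals overlapped, and in 45.8% (37.8 to 54.0) against 24.4% (22.0 to 27.0) in library 2. Cells with a Plau count numbered 10 and 14, too few to describe. These shares pool all clusters and compare cells of a library, not replicates.

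Over the 10 groups of at least 30 cells formed by Lats-deleted library and cluster, Plaur and F3 had the most similar profiles of the 4 genes, with a Pearson r of 0.942 on log2(CPM + 10). The r was 0.581 for Plat with Plaur, 0.431 for Plat with F3 and 0.236 for Plat with Plau. Plau gave -0.318 with Plaur and -0.373 with F3. The groups include the stromal-like cells of library 1. Of the 10 groups these had the highest Plau (47.6 CPM from 9 counts) and the lowest Plaur (47.6 CPM) and F3 (5.29 CPM). How far the r values, and the signs for Plau, depend on that group was not tested. The 10 groups share 2 libraries, their depth and their mix of clusters, so these values describe and do not test.

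Among 5816 genes reaching 50 CPM in any of those groups, the profiles most like Plat were those of Fam213a (0.982), Trim25 (0.976), Arl8a (0.971), Lrp10 (0.969) and Cited2 (0.963). For Plaur they were Emp1 (0.985), Fam107b (0.977), Krt7 (0.970), Rhpn2 and S100a14 (0.969 each). For F3 they included Actb (0.985), S100a14 (0.981) and Krt7 (0.974). Krt7, a simple-epithelium keratin and a regenerative marker here, and the calcium-binding protein gene S100a14 stood among the 5 nearest genes of both Plaur and F3. The nearest to Plau were Impact (0.958), Abcb1b and Mfhas1 (0.948 each), Trpv2 (0.945) and Ccdc127 (0.940). The Plau counts were few, and Plau was highest in the stromal-like group.

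Summed over clusters, cycling cells of the Lats-deleted libraries carried less Plat, Plaur and F3 than non-cycling cells, although the levels of cycling cells differed widely between clusters. Cycling cells had at least 3 counts, summed over 45 cell cycle genes after thinning (132 and 507 cells), and non-cycling cells had at most 1 (513 and 617 cells). Plat was 364 and 76.3 CPM in cycling cells, against 701 and 304 CPM in non-cycling cells. Plaur was 253 and 194 against 355 and 341 CPM, and F3 was 284 and 270 against 414 and 558 CPM. In each library the CPM of cycling cells was below that of non-cycling cells for these 3 genes. After thinning, 18.2% and 6.51% of cycling cells had a Plat count, against 29.4% and 16.2% of non-cycling cells. For F3 these shares were 14.4% and 20.3% against 21.4% and 32.3%. For Plaur they were 20.5% and 18.1% against 20.7% and 25.4%, near equal in library 1. Plau was 18.7 and 9.23 CPM in cycling cells from 12 and 22 counts, against 8.49 and 9.65 CPM in non-cycling cells from 21 and 26 counts, so the libraries differed in direction.

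In edgeR's quasi-likelihood test with library as a block, Benjamini-Hochberg adjusted over 12161 genes, Plat fell in cycling cells (log2 fold change -1.54, SE 0.214, adjusted p = 0.00186). F3 fell with -0.89 (SE 0.147, adjusted p = 0.00450), and Plaur with -0.74 (SE 0.142, adjusted p = 0.00885). As folds, cycling over non-cycling, these are 0.343, 0.540 and 0.599. With library as a block, the spread behind these tests is that of the class difference between the Lats-deleted libraries. The tests thus rest on few degrees of freedom. Plau did not pass, at 0.37 (SE 0.425, adjusted p = 0.630), with a 95% interval of the log2 difference of -0.59 to 1.32. In this test 15.2% of genes were called, 7.30% higher and 7.87% lower in cycling cells, and the lower calls on 3 of the 4 genes are to be read against that 7.87%. Without library as a block none of the 3 passed, with adjusted p of 0.431 for Plat, 0.201 for Plaur and 0.186 for F3, and with DESeq2 Plaur did not (adjusted p = 0.0770). Over all alternatives the adjusted p ran between 4.15e-18 and 0.431 for Plat, 2.46e-04 and 0.201 for Plaur, and 1.04e-06 and 0.186 for F3.

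The classes also differed in cluster composition and depth. Cluster 0 held 27.3% of cycling and 33.3% of non-cycling cells in library 1, and 7.89% against 21.1% in library 2. Cluster 1 held 11.4% against 35.7% in library 1, and 2.17% against 21.7% in library 2. Gastric-like cells made up 48.1% of cycling and 28.8% of non-cycling cells of library 2, and median counts per cell were 4222 and 4248 in cycling against 3607 and 3678 in non-cycling cells. Without gastric-like and stromal-like cells the log2 fold changes were -1.29 for Plat, -0.64 for Plaur and -0.69 for F3 (edgeR adjusted p = 1.13e-05, 0.00294 and 6.37e-04).

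Within single clusters the difference was not uniform. Ratios were taken only where a library had enough cells of both classes in a cluster. Cluster 1, which supplied the largest part of the Plat counts, had 15 and 11 cycling cells and so has no ratio. Gland-like cells of library 2, with 14 non-cycling cells, have none either. Cluster 13, in which all 12 cycling markers were high, had 22 of 25 cells in the cycling class in library 1 and 12 of 13 in library 2. Its levels, 453 and 582 CPM of Plat, 265 and 454 CPM of Plaur and 279 and 653 CPM of F3, were in library 2 above those of all non-cycling cells (304, 341 and 558 CPM), though for F3 the interval of 478 to 871 CPM included that level and for Plaur the interval of 311 to 641 CPM did too. In library 1 they were below those of all non-cycling cells (701, 355 and 414 CPM), with the interval of 187 to 363 CPM for Plaur including that level. In cluster 0 of library 1 the ratio of cycling to non-cycling cells was 1.11 (0.886 to 1.37) for Plat, 1.02 (0.748 to 1.36) for Plaur and 1.26 (0.998 to 1.58) for F3. In the same cluster of library 2 it was 0.647 (0.450 to 0.910) for Plat, 0.598 (0.410 to 0.851) for Plaur and 0.698 (0.562 to 0.861) for F3. Library 1 thus showed no lower level in cycling cells of this cluster, whereas library 2 did. Cluster 3 of library 2 had the most cycling cells of these comparisons, 173 beside 101 non-cycling cells. There the ratio was 0.453 (0.288 to 0.712) for Plat. For Plaur and F3 it was 0.697 (0.542 to 0.900) and 0.736 (0.599 to 0.907). In pit-like cells of library 2 the ratio was 0.139 (0.0673 to 0.261) for Plat, 0.637 (0.512 to 0.789) for Plaur and 0.522 (0.419 to 0.648) for F3. In cluster 9 of library 1 it was 0.604 (0.362 to 0.986) for Plat, 0.973 (0.596 to 1.58) for Plaur and 0.556 (0.324 to 0.928) for F3.

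**Figure D3:**
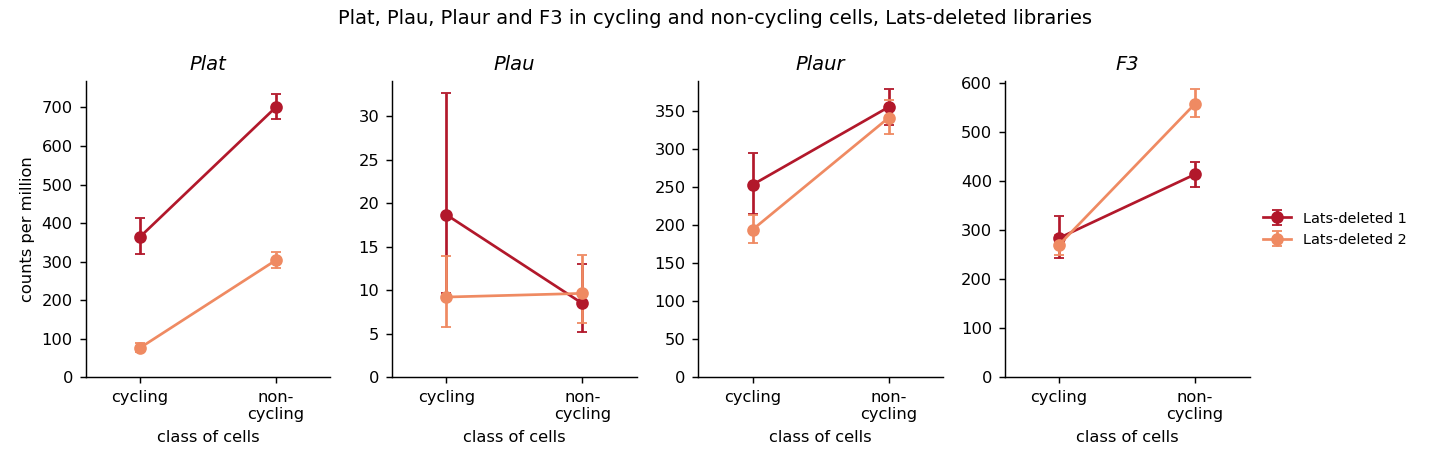
Levels of Plat, Plau, Plaur and F3 in CPM in cycling and non-cycling cells of each Lats-deleted library, joined by library, with 95% exact Poisson intervals and a separate scale for each gene. Plat, Plaur and F3 are lower in cycling cells of both libraries (Plat at 364 and 76.3 against 701 and 304 CPM), and Plau differs in direction between the libraries.

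The plot by cycling class shows the 2 libraries apart. Cells with 2 such counts fell in neither class and numbered 81 and 165, and those just inside, with 3, numbered 39 and 101. The classes are ranges of a count and not cell types. With classes cut at 2 and 0, or at 5 and 1, the 3 genes kept their calls.

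The other genes of plasminogen activation and coagulation were taken as 7 lists chosen with earlier results of these libraries known, so their counts describe and support nothing. Of 84 genes with a column, 54 had counts enough to be tested between Lats-deleted and control libraries. By edgeR's quasi-likelihood test at an adjusted p of 0.05, 23 of these rose, 7 fell and 24 did not pass. Among all genes tested 15.3% were higher and 15.5% lower. The median log2 fold change was 0.92 over the 54 genes and 0.05 over all genes.

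Plasminogen hardly registered. Plg, the substrate of the activators, had 11 and 30 counts in the Lats-deleted libraries and 9 and 6 in control, with a log2 fold change of -0.57 that did not pass (adjusted p = 0.421, edgeR). Of the 10 genes of the list of plasminogen and its inhibitors 4 had counts enough to be tested. Of 4 plasminogen receptor genes, the annexin subunit Anxa2 rose by 1.89 (SE 0.243, adjusted p = 0.00193), its partner S100a10 by 0.85 (adjusted p = 0.0415), and Plgrkt, a membrane receptor for plasminogen, fell by 1.59 on the log2 scale (adjusted p = 0.00194), all by edgeR. Without control library 1 or 2 neither Anxa2 (edgeR adjusted p = 0.0663 and 0.0718) nor S100a10 (0.218 and 0.328) passed, and S100a10 did not pass with at least 2000 counts per cell either (0.0719).

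Of 10 tested partners and uptake receptors of the urokinase receptor, 5 rose and 1 fell. The integrin subunit Itgb6 stood at 337 and 263 CPM in Lats-deleted and 28.7 and 16.3 CPM in control libraries (log2 fold change 3.45, edgeR adjusted p = 6.20e-04). Egfr, the receptor of epidermal growth factor, rose by 1.96, and the integrin subunits Itgb1 by 1.89 and Itgav by 1.65 (edgeR adjusted p = 0.00127, 0.00192 and 0.00161). The call on Itgb1 was lost without control library 1 or 2 (edgeR adjusted p = 0.0522 and 0.0597) and that on Itgav without control library 1 (0.0515). The gene that fell, outside the naming rule and chosen after its values were seen, was Lrp1, which takes up complexes of protease and inhibitor. It stood at 35.1 and 13.7 CPM in Lats-deleted and 95.4 and 79.8 CPM in control libraries, and 61.6% of its counts in Lats-deleted library 1 were in stromal-like cells.

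Of 9 tested genes of the list of matrix metalloproteinases and inhibitors, 4 rose and 1 fell. No tested Mmp or Timp gene was called lower. The gene that fell, outside the naming rule and chosen after its values were seen, was Bsg (log2 fold change -0.83, edgeR adjusted p = 0.0263). The rises included 2 proteases of the membrane, Mmp14 at 2.99 and Mmp15 at 1.83 (edgeR adjusted p = 0.00500 and 0.00842), and 2 inhibitors. Timp2 had 291 and 170 CPM in Lats-deleted and 2.49 and 2.44 CPM in control libraries, a log2 fold change of 6.26 (edgeR adjusted p = 2.38e-04), and Timp3 rose by 4.98 (edgeR adjusted p = 2.92e-04). Of the Timp2 counts of library 1, 35.3% were in stromal-like cells, and without those cells its log2 fold change was 5.95. Without control library 1 or 2 the calls on Mmp14 (edgeR adjusted p = 0.0728 and 0.0583) and Mmp15 (0.0818 and 0.0915) were lost.

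Of 12 tested epithelial serine proteases and inhibitors, 6 rose and 2 fell. The protease gene Prss22 stood at 101 and 80.0 CPM in Lats-deleted and 2.49 and 0.814 CPM in control libraries (log2 fold change 5.40, edgeR adjusted p = 3.19e-04), and Prss23 rose by 3.37 (edgeR adjusted p = 0.00338). Slpi, an inhibitor of leukocyte proteases, had 2229 and 482 counts against 1 in each control library, a ratio of 409 (113 to 3378). Of these, 99.4% and 90.9% were in stromal-like cells, and 13 and 44 counts were left without them, too few for the test. Without control library 1 or 2 the calls on Prss23 (edgeR adjusted p = 0.0526 and 0.0551) and Slpi (0.0785 and 0.0605) were lost. The goblet cell gene Spink4 fell by 5.65 on the log2 scale (edgeR adjusted p = 2.02e-04), and the goblet-like share of cells was 0.275% and 0.388% in Lats-deleted against 6.85% and 8.16% in control libraries.

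Coagulation factor genes were mostly near 0 counts, as 11 of 16 were too low to test. Of the 5 tested, Vkorc1, an enzyme of the vitamin K cycle, fell by 1.92 on the log2 scale (edgeR adjusted p = 0.00200), and the factor genes F5 and F10 did not pass. F7, which encodes the ligand of tissue factor, had 5 and 5 counts in Lats-deleted and 0 and 2 in control libraries.

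Of 10 tested regulators of tissue factor and receptors for thrombin and related proteases, 5 rose and 1 fell. Anxa5, which binds the phospholipid that clotting factors assemble on, stood at 624 and 485 CPM in Lats-deleted and 6.24 and 1.63 CPM in control libraries (log2 fold change 6.78, edgeR adjusted p = 2.62e-04). F2rl1, the receptor PAR2 that responds to trypsin-like proteases, stood at 191 and 163 against 25.6 and 24.4 CPM (log2 fold change 2.56, edgeR adjusted p = 4.48e-04). Procr, the receptor of protein C, had 185 and 160 counts against 1 and 0, a ratio of 104 (18.6 to 4122). P4hb, which encodes a protein disulfide isomerase, fell by 2.03 on the log2 scale (edgeR adjusted p = 0.00109). Tfpi, the inhibitor of tissue factor, did not pass: it had 18 and 18 counts against 10 and 6 (log2 fold change -0.75, edgeR adjusted p = 0.276). The thrombin receptor gene F2r, outside the naming rule and chosen after its values were seen, had 252 and 187 counts against 2 and 2, a ratio of 33.1 (12.8 to 122).

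**Figure D4:**
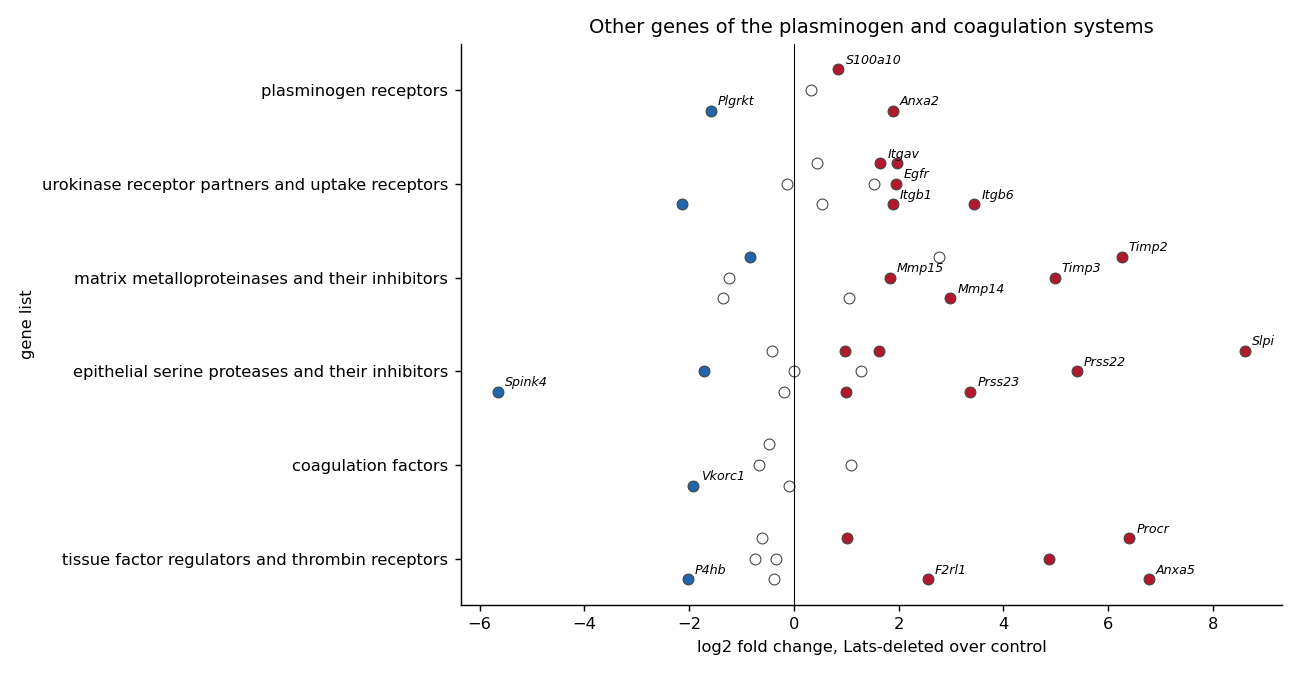
Log2 fold change, Lats-deleted over control, for the 50 tested genes of 6 of the 7 lists, with filled points for genes past an adjusted p of 0.05 (red higher, blue lower), open points for the others, and names for up to 4 genes a list with the smallest p. Points run between Spink4 at -5.65 and Slpi at 8.62, and genes higher, lower and not called occur together in most lists.

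The plot of the lists also shows how unequal the genes were within a list. Between cycling and non-cycling cells of the Lats-deleted libraries 53 of the genes were tested, of which 20 fell, 1 rose and the median log2 fold change was -0.47, against -0.01 over all genes. Of all genes in this test 7.87% were lower and 7.30% higher in cycling cells. By edgeR's quasi-likelihood test the gene that rose was the transmembrane protease gene Tmprss4, at 1.12 (SE 0.308, adjusted p = 0.0399), a call that was lost without gastric-like and stromal-like cells (adjusted p = 0.268), with DESeq2 (adjusted p = 0.409) and without library as a block (adjusted p = 0.232). Procr fell with -1.02 (adjusted p = 0.0179), Anxa5 with -0.88 (adjusted p = 0.00151) and Anxa2 with -0.56 (adjusted p = 0.00366), all by edgeR. Beside these 21 calls, DESeq2 made 6 among the genes of the lists and edgeR without library as a block made 0, with 15 at an unadjusted p under 0.05.

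Markers of other cell types were summed for each library. The 8 stromal markers summed to 1205 and 87.0 CPM in Lats-deleted and to 23.7 and 18.7 CPM in control libraries, with all 8 and 8 detected against 7 and 7 (Lum at 0 in control library 1, Mgp in library 2). The 8 endothelial markers, a cell type known to make Plat, reached 78.0 and 57.8 CPM against 79.8 and 68.4 CPM, with 8 and 8 detected against 7 and 8 (Plvap at 0 in control library 1). The 10 leukocyte markers reached 84.8 and 101 CPM against 181 and 587 CPM, with 8 and 10 detected against 8 and 6, and Tyrobp was at 0 in Lats-deleted library 1 and both control libraries. Without the stromal-like cells the log2 fold changes were 8.39 for Plat, 6.38 for Plaur and 6.53 for F3, and without the gastric-like cells 8.43, 6.33 and 6.61. The share of mitochondrial counts also differed, with medians of 3.64% and 3.90% in the Lats-deleted libraries and 9.55% and 6.84% in control. Among cells with at most 15% the log2 fold changes were 8.12 for Plat, 2.21 for Plau, 6.70 for Plaur and 6.38 for F3.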

How the data were processed

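Single-cell transcriptomes of sorted intestinal epithelium were measured in 4 libraries. The deposited values are counts, per the file headers, with rows for cell barcodes and columns for gene symbols. They are whole numbers that were not normalized. Whether they count molecular identifiers is not given in the sources used here. The submitters' processing notes name RSEM 1.3.0, Bowtie 1.1.1.1, SAMtools 1.3.1 and mm10, with no role or order. Total counts per library were 4731529 and 9191916 (Lats-deleted) and 2872497 and 2247269 (control), of which kept cells held 3562565, 5826856, 1603796 and 1228504.

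Of 25289 symbols, 24560 (97.1%) matched GENCODE M21. Cells were clustered with scanpy 1.11.5 and leidenalg 0.10.2 (2000 variable genes without Plat, Plau, Plaur and F3, 30 components, 15 neighbours, resolution 1). A cluster was named "-like" where at least 3 markers of a fixed list were high and the list's mean log2 fold change passed 0.5. No other list could have more markers among the 10 leading genes, and a condition on depth applied. Cluster 9 had 4 regenerative markers high but a mean of 0.22, so it stayed unnamed. Scrublet marked 2, 5, 3 and 6 cells as doublets (Lats-deleted 1 and 2, control 1 and 2), or 0.484% of all 3304 kept cells. So low a share is not taken as a working call, and no cell was removed as a doublet. Counts were summed per library, or per library and cycling class, and tested with edgeR 4.0.16 in R 4.3.3 (TMM factors, filter on low counts, quasi-likelihood test, Benjamini-Hochberg adjustment, threshold 0.05), and the fit was tested on simulated data. DESeq2 1.42.0 was an alternative. Samples were grouped by genotype as labelled. Intervals are 95% exact Poisson, Clopper-Pearson or conditional binomial and cover counting error only, as does the limit of 3 counts set for a count of 0. The 4 genes, the lists and the tests were chosen with earlier results of these data known. Named beside them are, of each list, up to 4 called genes with the smallest p, and the 5 genes most correlated with each of the 4, leaving out predicted gene models. A few genes that this rule chose are not reported here.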

Additional observations from a re-analysis of the deposited data

Results flagged for a closer look

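Barcodes with under 500 counts (3761 and 14898 in the Lats-deleted libraries and 2722 and 2875 in control) enter no comparison of the report. Transcripts of all 4 genes appeared in them in the Lats-deleted libraries above the level in either control library, which is what set these values apart. Plat stood at 333 and 221 CPM there, against 0 and 3.78 CPM in control. Plau stood at 7.21 and 12 CPM against 3.48 and 0 CPM, and these rest on 5 and 35 counts against 2 and 0. Plaur stood at 206 and 206 CPM against 1.74 and 1.89 CPM, and F3 at 313 and 353 CPM against 1.74 and 1.89 CPM. Beside them, kept cells of the Lats-deleted libraries had 643 and 197 CPM of Plat, 337 and 276 CPM of Plaur and 403 and 418 CPM of F3. Whether such barcodes hold broken cells or free RNA was not tested. Groups of 2 libraries are too small for a check of outlying libraries.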

How the results depend on the processing

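With 2 libraries a group, calls between genotypes rest on few degrees of freedom, and where a library is left out the lone library is assumed to vary like the other group. Against 3869 genes called, 1228 were called without control library 1 and 1478 without control library 2 (range 1228 to 5387 over the libraries left out), and of the pathway genes 15 with either of them left out, beside 30 (range 15 to 37). Followed through the alternatives were 22 pathway genes, F2r and those chosen by the naming rule. Some of them lost their call without control library 1 or 2, and 1 (S100a10) with at least 2000 counts per cell. The log2 fold change of Plat ran from 7.26 to 8.88 without each library in turn and was 7.28 in thinned cells. For Plau it ran from 2.06 to 2.35 and was 2.36 with no filter, 2.66 with at least 2000 counts per cell and 2.40 without gastric-like cells. For Plaur it ran from 6.19 to 6.41 and was 6.52 with no filter, 6.80 with at least 2000 counts, 6.70 with at most 15% mitochondrial counts and 6.12 thinned. For F3 it ran from 6.09 to 7.20. The alternatives without repeated barcodes and without the 2 control cells were chosen after seeing the data. The thinned fit gave no value for Plau.

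Replicate numbers are shared between genotypes, and deviations of same-numbered libraries from their group means correlated at 0.072 over 8671 genes. The Lats-deleted libraries also differ in cell content, so this value cannot decide whether the numbers pair libraries. The main fit did not pair them. With the replicate block 4162 genes and 32 pathway genes were called. In the cycling comparison no replicate block gave 40 genes called (DESeq2 528, main 1845) and 0 pathway genes (DESeq2 6, main 21), with log2 fold changes of -1.32 for Plat, -0.73 for Plaur and -0.90 for F3 that no longer passed (adjusted p = 0.431, 0.201 and 0.186, edgeR). DESeq2 gave -0.74 for Plaur (adjusted p = 0.0770). Within each library alone the range was -1.98 to -0.95 for Plat, -0.81 to -0.49 for Plaur, -1.05 to -0.54 for F3 and -0.06 to 1.06 for Plau, whose sign turned in library 2 alone. The causes were not tested.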
